A study of Mus musculus with 8 samples.

Results

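The RNA of 9 interneuron genes was followed across libraries made from nuclei of hippocampal pyramidal cells. The genes were Gad1, Gad2, Slc32a1, Erbb4, Adarb2, Vip, Nr2f2, Alk and Rab3b, taken by name from the deposited table, and 9 of 9 were among its 15519 genes. They had been chosen from results on these same libraries, with their levels by library known, so their values are given as a description and no test of them is used as support. Gad1, Gad2 and Slc32a1 lie on mouse chromosome 2, Erbb4 on 1, Adarb2 on 13, Vip on 10, Nr2f2 on 7, Alk on 17 and Rab3b on 4.

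The libraries held nuclear RNA from the hippocampus of WT mice, taken from cells labelled as hippocampal pyramidal cells. The cells had been classed as place cells, which fire at given locations, from imaging of the live brain while the mice navigated, and were then tagged with light and collected as nuclei. In all, 4 libraries were labelled Day 0 place cell and 4 Recurring place cell, and the labels give no further definition, age or sex. The sample titles carry different mouse numbers. Each group also held libraries with Xist reads and libraries with Y-linked reads, as given below. Among libraries that share such a pattern, only the titles speak for separate animals. By the titles, the tests below rest on a spread between mice, which also holds any technical spread between libraries. The number of nuclei in a library is not given in the sources used here.

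Interneurons are the local inhibitory neurons of the hippocampus. They make GABA from glutamate with the enzymes encoded by Gad1 and Gad2 and load it into synaptic vesicles with the transporter encoded by Slc32a1, whereas pyramidal neurons load glutamate with the transporter encoded by Slc17a7. Their main classes arise in the caudal or the medial ganglionic eminence of the embryo and keep different transcription factors and peptides. Adarb2, Vip and Nr2f2 are used as marks of the caudal branch.

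Depth ranged from 8374986 to 14887866 reads per library, and size factors that correct for depth ranged from 0.837 to 1.61. Between 10718 and 13807 genes had reads in a library. All 14 listed CA1 pyramidal markers were in the table, and 12 to 14 of them had reads in each library. Slc17a7 had reads in all 8 libraries, with a lowest value of 1182 and a highest of 6426. Xist had 9072 to 15633 reads in replicates 1 and 2 of both groups and at most 67 in the others, which had 11840 to 17596 reads of Y-linked genes, so each group held 2 libraries of each pattern. All levels below are log2 of the depth-normalized count plus 1. A count of 0 allows up to 3 reads, or 1.86 to 3.58 normalized counts in these libraries, which covers counting error only. In RNA pooled over nuclei, fewer cells of a type and less RNA per cell cannot be told apart.

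The enzyme genes were read in most libraries and very unevenly. Gad1, which encodes the larger GABA-synthesizing enzyme, had 1304, 239, 501 and 0 reads in the Day 0 libraries (replicates 1 to 4, in this order throughout), against 6, 5740, 768 and 0 in the Recurring libraries. Recurring replicate 2 was highest and held 64.3% of the depth-normalized Gad1 count of the 8 libraries. Mean levels were 6.68 ± 4.56 in Day 0 and 6.02 ± 5.83 in Recurring libraries (SD, n = 4), and the groups overlapped from 0 upward.

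Gad2, which encodes the vesicle-associated enzyme, had 456, 45, 0 and 0 reads in the Day 0 libraries against 102, 1781, 35 and 22 in the Recurring ones. No other gene of the 9 had reads in all 4 Recurring libraries, and Recurring replicate 2 held 74.3% of its normalized count. Its mean levels were 3.40 ± 4.14 and 6.57 ± 2.68 (SD, n = 4), with overlapping groups. The enzymes did not keep a fixed proportion. Per kilobase of exon, Gad1 stood at 127 and Gad2 at 57.7 normalized counts in Day 0 replicate 1, and at 607 and 245 in Recurring replicate 2. In Recurring replicate 1 the order was turned, with Gad1 at 0.486 and Gad2 at 10.8.

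Slc32a1, the vesicular GABA transporter gene, was read in 3 libraries. It had 250 reads in Day 0 replicate 1, 196 in Recurring replicate 2 and 2 in Recurring replicate 3, and 0 in the other 5. Its mean levels were 1.89 ± 3.77 and 2.24 ± 3.47 (SD, n = 4). The libraries with more than a trace of the transporter were thus those with the most Gad2 reads, 1 in each group.

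**Figure D1:**
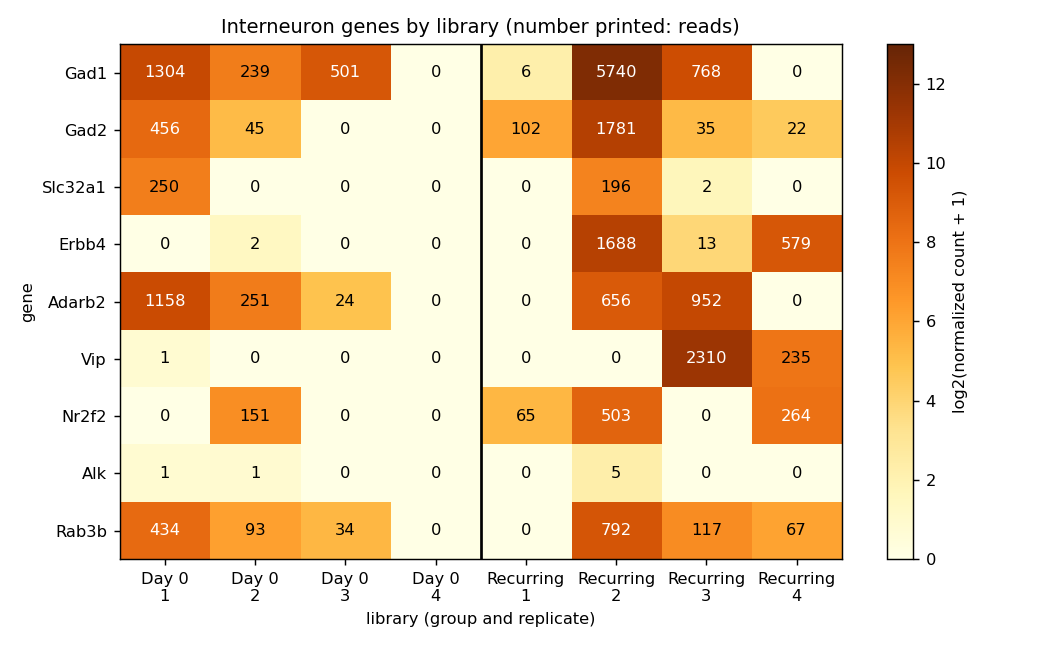
Each cell is 1 gene (vertical axis) in 1 library (horizontal axis), coloured by log2 of the normalized count plus 1, with the number of reads printed in it. Recurring 2 carries 8 of the 9 genes, Day 0 4 carries 0, and Vip stands in Recurring 3 and 4.

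The 3 genes of the caudal branch were read in different sets of libraries. Adarb2 encodes an RNA-binding relative of the RNA-editing enzymes that lacks editing activity. Its reads numbered 1158, 251, 24 and 0 in the Day 0 libraries against 0, 656, 952 and 0 in the Recurring ones. Its highest level was in Recurring replicate 3, and mean levels were 5.57 ± 4.22 and 4.76 ± 5.51 (SD, n = 4).

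Vip encodes vasoactive intestinal peptide, a transmitter peptide of some interneurons, among them cells that inhibit other interneurons. Recurring replicate 3 had 2310 reads and Recurring replicate 4 had 235, Day 0 replicate 1 had 1, and the other 5 libraries had 0. Recurring replicate 3 held 91.1% of its normalized count. Recurring replicate 2, the library richest in Gad1 and Gad2, had no Vip read. Mean levels were 0.20 ± 0.40 in Day 0 and 4.79 ± 5.70 in Recurring libraries (SD, n = 4), and the groups overlapped because 2 Recurring libraries were at 0.

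Nr2f2, which encodes the nuclear receptor COUP-TFII, had 151 reads in Day 0 replicate 2 and 0 in the other Day 0 libraries. The Recurring libraries had 65, 503, 0 and 264. Its mean levels were 1.73 ± 3.46 and 5.53 ± 3.95 (SD, n = 4). The library highest in Vip was at 0 for Nr2f2, and the library highest in Nr2f2 was at 0 for Vip.

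Gad1 and Adarb2 had the highest Pearson's r of all pairs over the 8 libraries, 0.93, while Vip had r = -0.07 with Gad1 and 0.02 with Gad2. Both Gad1 and Adarb2 had 0 reads in Day 0 replicate 4 and Recurring replicate 4, and they had 6 and 0 in Recurring replicate 1. Such shared low values raise r, and the highest library was not the same for Gad1 and Adarb2. The start regions of these 4 genes are printed beside these values. They are the 250 bases before the gene start, from RefSeq with build GRCm38.p6, at chr2:70561879-70562128, plus strand, chr2:22622077-22622326, plus strand, chr13:8202616-8202865, plus strand and chr10:5638968-5639217, plus strand. Capitals mark matches on either strand to TGACG (the half-site of the cAMP response element), to TATAAA (the TATA box), to GGGCGG (the GC box) and to TAATTA (the homeodomain core).
Gad1: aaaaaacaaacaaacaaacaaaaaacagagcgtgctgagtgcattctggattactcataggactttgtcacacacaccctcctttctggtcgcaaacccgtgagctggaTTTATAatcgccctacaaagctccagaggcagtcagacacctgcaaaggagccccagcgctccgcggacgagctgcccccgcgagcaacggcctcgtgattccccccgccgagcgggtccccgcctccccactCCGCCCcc
Gad2: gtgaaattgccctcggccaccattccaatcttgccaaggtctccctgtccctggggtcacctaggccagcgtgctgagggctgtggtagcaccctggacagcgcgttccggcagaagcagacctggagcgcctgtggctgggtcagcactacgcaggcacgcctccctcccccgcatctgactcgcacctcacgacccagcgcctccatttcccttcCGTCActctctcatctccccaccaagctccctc
Adarb2: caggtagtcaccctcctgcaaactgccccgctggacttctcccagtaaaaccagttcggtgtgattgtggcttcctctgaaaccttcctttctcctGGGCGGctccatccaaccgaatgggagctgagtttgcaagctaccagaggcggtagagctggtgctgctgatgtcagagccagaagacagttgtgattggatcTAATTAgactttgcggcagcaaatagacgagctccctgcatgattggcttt
Vip: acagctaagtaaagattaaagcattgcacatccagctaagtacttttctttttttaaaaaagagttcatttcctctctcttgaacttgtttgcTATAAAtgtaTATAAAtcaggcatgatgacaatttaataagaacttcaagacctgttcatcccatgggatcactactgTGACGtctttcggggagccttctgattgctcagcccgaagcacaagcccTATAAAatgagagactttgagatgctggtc
On both strands TGACG stood in 17.8% of the 32851 regions of this length in the RefSeq table, TATAAA in 12.4%, GGGCGG in 32.7% and TAATTA, which reads the same on both strands, in 4.84%. TGACG was in the regions of 4 of the 9 genes, Gad2, Vip, Alk and Rab3b, and in Vip it began 79 bases before the start. TATAAA was in 3 of the 9, with 3 matches in Vip and 1 each in Gad1 and Rab3b. GGGCGG was in 4 of the 9, with 4 matches in Rab3b and 1 each in Gad1, Adarb2 and Alk. The single TAATTA of the 9 genes was in Adarb2. These matches describe letters only.

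The remaining genes act in signalling and release. Erbb4, the neuregulin receptor that hippocampal interneurons carry, had 2 reads in Day 0 replicate 2 and 0 in the other Day 0 libraries. The Recurring libraries had 0, 1688, 13 and 579. Mean levels were 0.34 ± 0.69 and 5.87 ± 4.84 (SD, n = 4), and the groups overlapped because Recurring replicate 1 was at 0. Recurring replicate 2 held 69.3% of its normalized count.

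Rab3b, a vesicle GTPase of the Rab3 family, had 434, 93, 34 and 0 reads in the Day 0 libraries against 0, 792, 117 and 67 in the Recurring ones, again highest in Recurring replicate 2 and overlapping between groups. Mean levels were 4.99 ± 3.55 and 5.60 ± 3.97 (SD, n = 4). Alk, a receptor tyrosine kinase gene, had 7 reads in all, 1 in each of Day 0 replicates 1 and 2 and 5 in Recurring replicate 2. It had a normalized count of 10 or more in 0 libraries, so nothing can be said of its level beyond that trace. Annotated genes on the opposite strand share exon bases with Slc32a1, Nr2f2 and Rab3b, and whether counting used strand is not stated, so reads of such partners cannot be told apart from theirs.

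**Figure D2:**
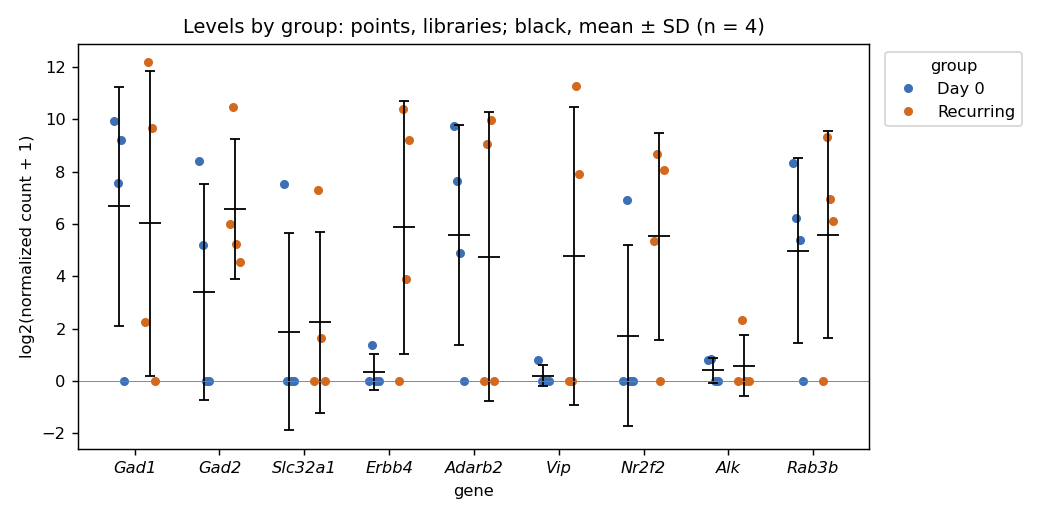
Points are the 4 libraries of a group, black marks and bars the mean and SD, for each gene on the horizontal axis, with log2 of the normalized count plus 1 on the vertical axis. The groups overlap for 9 of 9 genes, and Erbb4 and Vip are at or near 0 in the Day 0 libraries.

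Recurring libraries were compared with Day 0 libraries gene by gene with limma, over the 11078 genes that reached 10 normalized counts in 4 or more libraries, and differences are Recurring minus Day 0 on the log2 scale. Of the 9 interneuron genes, 5 passed that filter. The fit called 0 of the 5 at a Benjamini-Hochberg adjusted p of 0.05, and the share called over all genes was 0.0%. At an unadjusted p under 0.05 there were 0 of the 5 and 401 of all genes, and voom gave 0 calls and 518. Gad2 differed by 3.17 (SE 2.53, 95% interval -2.16 to 8.50) and Nr2f2 by 3.80 (SE 2.43, 95% interval -1.33 to 8.92). Gad1 differed by -0.66 (SE 2.81), Adarb2 by -0.82 (SE 2.91) and Rab3b by 0.61 (SE 2.58). The lowest adjusted p among the 5 was 0.981, and these intervals are wide enough to hold large differences either way.

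Means were higher in Recurring libraries for 3 of the 5 tested genes, beside 50.1% of all tested genes. With no filter they were higher for 7 of all 9, beside 49.5% of all genes. Alk was among those 7, on 7 reads in all. The median difference was 0.61 over the 5 and 0.00500 over all tested genes. Without Recurring replicate 2 the count was 1 of the 4 genes then tested, beside 51.5% of all genes, and Rab3b differed by -0.63. Without Day 0 replicate 1 it was 5 of 5, with Gad1 at 0.42 and Adarb2 at 0.58. No gene of the 9 had groups that did not overlap, against 2.41% of all tested genes.

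Reads of the 9 genes lay in 3 to 6 of the 8 libraries each, with a median of 4, and 0 of the 9 had reads in all 8. Over the whole table the median was 7 libraries, and 39.2% of genes had reads in all 8. Recurring replicate 2 was the highest library for 6 of the 9 genes, Alk among them on 5 reads, and for 15.6% of all tested genes. Recurring replicate 3 was highest for Adarb2 and Vip (8.12% of all tested genes) and Day 0 replicate 1 for Slc32a1 (12.1%). These shares cover tested genes only, whereas 5 of the 9 were tested.

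By library, the mean level over the 9 genes was 5.06, 3.98, 2.17 and 0 in Day 0 replicates 1 to 4, and 1.51, 7.75, 5.41 and 3.98 in Recurring replicates 1 to 4. Recurring replicate 2 stood 2.35 above the next library. It had 11361 reads of these genes, against 4197 in Recurring replicate 3 and 3604 in Day 0 replicate 1. Day 0 replicate 4 had 0 reads of any of the 9 among its 9766640. Within the libraries with Xist reads, levels were 5.06 and 3.98 in Day 0 and 1.51 and 7.75 in Recurring cells. Within those with Y-linked reads they were 2.17 and 0 against 5.41 and 3.98, with only 2 libraries on each side.

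The leading gene also changed from library to library. Gad1 made up 36.2% of the normalized count of the 9 genes in Day 0 replicate 1, 89.6% in Day 0 replicate 3 and 50.5% in Recurring replicate 2. Adarb2 led in Day 0 replicate 2 with 32.1%, Gad2 in Recurring replicate 1 with 59.0%, Vip in Recurring replicate 3 with 55.0% and Erbb4 in Recurring replicate 4 with 49.6%. Over the 36 pairs of genes, Pearson's r across the 8 libraries had a median of 0.50. It ranged from -0.36 for Vip and Alk to 0.93 for Gad1 and Adarb2. Both genes of a pair share the depth and size factor of each library.

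Set against the glutamate transporter gene per kilobase of exon, Gad1 and Gad2 together reached 23.1 per 100 of Slc17a7 in Day 0 replicate 1, 5.80 in replicate 2, 25.6 in replicate 3 and 0 in replicate 4. In Recurring replicates 1 to 4 they reached 1.52, 296, 48.6 and 0.940 per 100. Recurring replicate 2 was the library in which the GABA synthesis genes exceeded Slc17a7, at 851 against 287 normalized counts per kilobase. Its CA1 pyramidal level, 8.95, was the lowest of the 4 Recurring libraries and lay above those of Day 0 replicates 3 and 4, at 8.93 and 8.67.

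**Figure D3:**
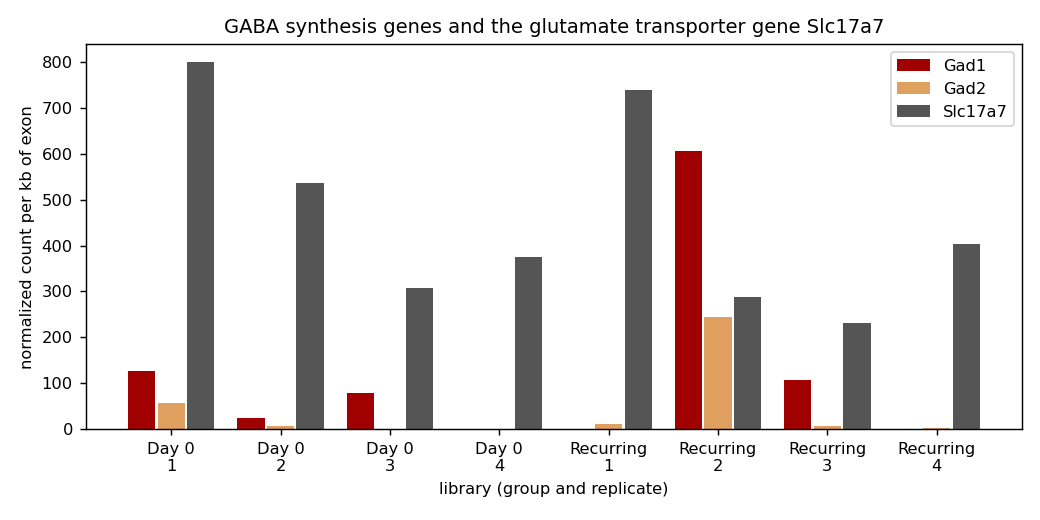
Bars give normalized counts per kilobase of exon (vertical axis) of Gad1, Gad2 and Slc17a7 in each library (horizontal axis). In Recurring 2 Gad1 stands at 607 and Slc17a7 at 287, and in the other 7 libraries Slc17a7 is the tallest bar.

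Other genes known from interneurons were taken from lists by cell type, which were drawn up with earlier results of these data known, so their counts are a description too. Of 58 such genes beside the 9, 28 were in the table. The others, Lhx6 and Htr3a among them, were not analysed here. Of the 28, 19 were tested and 0 were called by limma, beside 0.0% of all tested genes. At an unadjusted p under 0.05 by limma there were 2 of the 19, Id2 and Penk, beside 401 of all 11078 tested genes. In 13 of the 19 the mean was higher in Recurring libraries, against 50.1% of all tested genes, and the median difference was 0.07. That count was 8 of 19 with voom, 8 of 17 without Recurring replicate 2 and 8 of 18 without Day 0 replicate 3. Recurring replicate 2 was the highest library for 11 of the 28 (15.6% of all tested genes), Recurring replicate 4 for 7 (14.3%), and each other library for at most 3. These shares cover tested genes only, whereas 19 of the 28 were tested.

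Genes shared by GABA cells had 7 of 15 members in the table, 4 tested, 3 of them higher and 1 lower, with a median difference of 1.47. Dlx6os1, a noncoding RNA beside the interneuron homeobox genes, had 1491 reads in Recurring replicate 2, 105 in Recurring replicate 3, 31 in Day 0 replicate 4 and 0 in the other 5 libraries. Dlx1, one of those homeobox genes, had 565 reads in Recurring replicate 2, 370 in Day 0 replicate 4, 149 in Day 0 replicate 1 and 8 in Recurring replicate 3. Day 0 replicate 4, which had none of the 9 genes, thus carried Dlx1. Grip1, a receptor scaffold gene, differed by 2.89 (SE 1.52) and Elavl2, a neuronal RNA-binding protein gene, by 1.29 (SE 1.56).

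Of the caudal list 10 of 22 were in the table, 9 tested, 7 higher and 2 lower, with a median difference of 0.07. Penk, the enkephalin precursor gene, had 301, 1, 0 and 2514 reads in Day 0 and 586, 6981, 461 and 590 in Recurring libraries, and the groups overlapped. It differed by 4.79 (SE 2.15, adjusted p = 0.981 by limma). Id2, a transcriptional inhibitor gene chosen after its values were seen, was at 4.12 ± 4.94 and 9.46 ± 0.85 (SD, n = 4), with an adjusted p of 0.981 by limma and overlapping groups. Prox1, a homeobox gene shared with dentate granule cells, had 917 reads in Recurring replicate 2 and 0 to 346 elsewhere. Pyramidal neurons also make some genes of this list, and these had reads in all 8 libraries. Cck, a peptide gene, differed by 0.01 (SE 0.47) and Cnr1, the cannabinoid receptor gene, by 0.07 (SE 0.68).

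Of the medial list 11 of 21 were in the table, 6 tested, 3 higher and 3 lower, with a median difference of -0.03. Sst, the somatostatin gene, had reads in all 8 libraries, 371, 131, 105 and 117 in Day 0 and 74, 315, 101 and 339 in Recurring libraries, a difference of 0.01 (SE 1.45). Pvalb, the parvalbumin gene, had 559 reads in Recurring replicate 2, 106 in Day 0 replicate 3, 81 in Day 0 replicate 1, 20 in Recurring replicate 4 and 0 elsewhere. Maf, a transcription factor gene of medial interneurons, had 4226 reads in Recurring replicate 2, 1122 in Day 0 replicate 1, 320 in Recurring replicate 3 and 0 in the other 5. Those 3 libraries were also the ones with Slc32a1 reads. Npy, the neuropeptide Y gene, differed by 2.32 (SE 2.02), the potassium channel gene Kcnc2 by -0.06 (SE 0.73) and Satb1, a chromatin organizer gene, by -0.31 (SE 1.99).

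**Figure D4:**
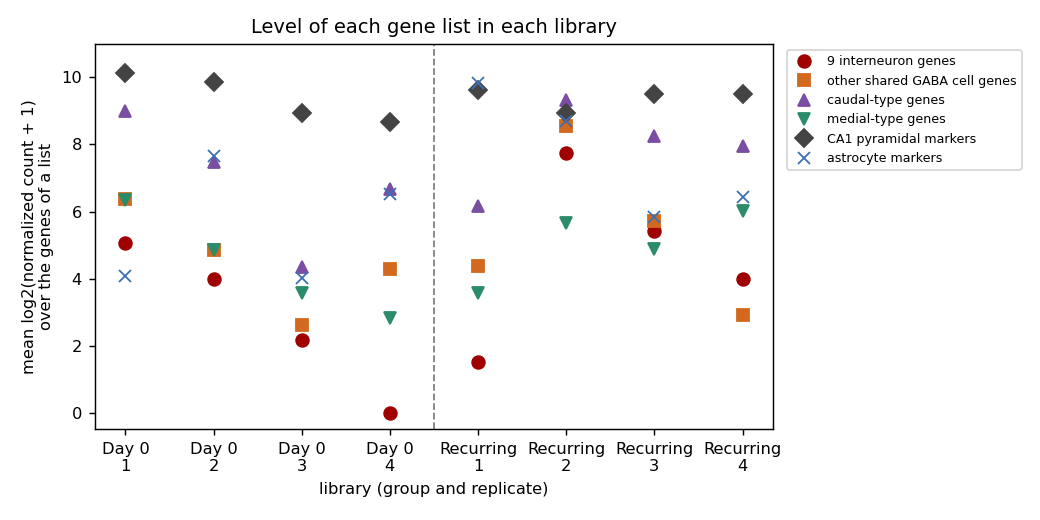
Points give the mean of log2 of the normalized count plus 1 over the genes of a list (vertical axis) in each library (horizontal axis). The 9 interneuron genes range from 0 in Day 0 4 to 7.75 in Recurring 2, and the CA1 markers stay between 8.67 and 10.1.

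Ligands and relatives of the 9 genes were listed as well, and limma called 0 of them. Among ErbB ligands and receptors 5 of 12 were in the table, 4 tested, 2 higher and 2 lower. Nrg3, a neuregulin gene, was at 257 reads in Recurring replicate 2, where Erbb4 was highest, and between 771 and 1850 in the other 7 libraries. Recurring replicate 4, the next highest in Erbb4, had 1486 Nrg3 reads. Nrg3 differed by -0.42 (SE 0.72), Nrg2 by -1.27 (SE 2.34) and the growth factor gene Egf by 4.66 (SE 2.29). Among ligands and receptors tied to Alk and Vip 5 of 9 were tested, 2 higher and 3 lower. Ptn, the pleiotrophin gene, was read in all libraries and differed by 1.37 (SE 0.52), Mdk, the midkine gene, by 0.17 (SE 2.55) and Vipr1, a receptor gene for the Vip peptide, by -2.54 (SE 1.67). Genes that handle glutamate, glutamine and GABA had 6 of 9 tested, 1 higher and 5 lower. The glutamine transporter genes Slc38a2 and Slc38a1 differed by -2.33 (SE 1.77) and -0.95 (SE 1.33). Slc38a2 was at 0 reads in Recurring replicate 1, the only library without it. Relatives of the 9 genes had 7 of 8 tested, 3 higher and 4 lower. Rab3a, the main vesicle Rab3 of glutamate synapses, differed by 0.52 (SE 0.60), Rab3c by 0.39 (SE 0.84) and the editing enzyme gene Adar by 1.83 (SE 1.63).

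The genes whose pattern was most like the mean of the 9 were sought among 9651 other tested genes by Pearson's r over the 8 libraries, with Spearman's rank correlation beside it, as a description. Ube3c, a ubiquitin ligase gene, had 0.97 by Pearson and 0.95 by Spearman, Arhgdia 0.96 and 0.95, and the kinase gene Jak1 0.93 and 0.93. Bicd1, Cbll1, Tube1, Spice1 and Aplp2 followed, with r between 0.92 and 0.93. Recurring replicate 2 was the highest library for each of these 8 genes, beside 15.6% of all tested genes. They were chosen for likeness to a mean that is highest in that library, so this largely follows from the choice. All genes of a library also share its depth and size factor, which enter both sides of each r.

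Markers of other cells moved across the same libraries, and their part in these values was not tested. The astrocyte level, over 11 of 12 markers in the table, ranged from 4.03 to 7.65 in Day 0 and from 5.84 to 9.85 in Recurring libraries, and was 8.69 in Recurring replicate 2, with Gfap, Slc1a2 and Aldoc read in all 8 libraries and Aldh1l1 at 0 reads in 3 Day 0 libraries. The microglia level, over 5 of 10, ranged from 1.55 to 4.64 and from 3.45 to 9.93, and was highest in Recurring replicate 4. Its defining marker Tmem119 was at 0 reads in 5 libraries and at 649 in Recurring replicate 2. The oligodendrocyte level, over 9 of 10, ranged from 3.33 to 8.11 and from 4.20 to 8.06, with Mbp read in all 8 libraries, and Mog, a marker of mature cells, was at 0 reads in 5 libraries, Recurring replicate 2 among them. The precursor level, over 3 of 6, ranged from 2.76 to 6.54 and from 5.88 to 7.46. The endothelial level, over 5 of 6, ranged from 1.86 to 3.57 and from 0.988 to 4.29, and Pecam1 had at most 3 reads in a library. The dentate granule level, over 9 of 10, ranged from 2.48 to 6.38 and from 2.97 to 6.01. Of 5 Cajal-Retzius markers 0 were in the table.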

How the data were processed

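Nuclear RNA of 8 libraries was measured. The authors deposited 1 table of scaled signal per gene and library, without a log transform. STAR, HTSeq and GRCm39 are named in the submitters' processing notes, and versions are not given in the sources used here. How the deposited signal was scaled is not stated. From the values, each was a whole number of reads times a constant of its gene, and for 15057 of the 15519 genes this constant lay within a relative 0.001 of a TMM factor obtained when each gene is treated as a library. A further 454 genes matched after a common factor of their reads was allowed for, 5 took the constant from the factor, and 3 had no match. From this, the signal carries no correction for depth. Dividing the constants out gave whole reads, within 0.1 read, for 95910 of 95910 values above 0. The step and the fit were tested on simulated data.

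Size factors were medians of ratios over 6091 genes, and reads over size factor are called normalized counts. limma-trend (limma 3.58.1, R 4.3.3) was fitted to log2 of the normalized count plus 1, a scale that understates changes of low genes, after the filter given above. The Benjamini-Hochberg adjustment ran over all tested genes, at a threshold of 0.05. Exon lengths came from GENCODE vM21, of an earlier build than the reads, and promoter sequences from RefSeq. Alternatives changed the scaling, pseudocount, filter, test, weights and covariate, or left out 1 library. In that annotation antisense genes share exon bases with Slc32a1, Nr2f2 and Rab3b, and the protocol does not say whether counting used strand.

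Members and lists were chosen with earlier results of these data known. Named genes were the 9 members, the 3 most abundant genes of each list, fixed marker genes, and the 8 genes most like the members outside predicted genes and clones. Some genes that this rule names are not reported here. Replicates were numbered in deposit order.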

Additional observations from a re-analysis of the deposited data

Results flagged for a closer look

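In 6 of 40 groups of 4 libraries that were examined, 1 library lay far from the other 3, where chance gives about 1 in 20. In 5 of the 6 the other 3 libraries were all at 0 reads, so any reading at all stands apart. These were Slc32a1 in Day 0 replicate 1, at a log2 level of 7.55, Nr2f2 in Day 0 replicate 2, at 6.92, Erbb4 in Day 0 replicate 2, at 1.38, Vip in Day 0 replicate 1, at 0.80, and Alk in Recurring replicate 2, at 2.33. The last 3 rest on 2, 1 and 5 reads. The sixth was the CA1 pyramidal level of Recurring replicate 2, 8.95, below the other 3 Recurring libraries at 9.51 to 9.61, in the library that was highest for 6 of the 9 interneuron genes. Whether that level moved with the interneuron reads was not tested.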

How the results depend on the processing

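No paired analysis was possible because the labels give no replicate numbers that the groups share. Of the 9 genes, 4 or 5 were tested under each alternative except the filters, and none of those tested was called. Slc32a1, Erbb4, Vip and Alk were tested only with no filter, where 0 of 9 were called. None of the other interneuron genes that were tested was called under any alternative run. Over all genes 0 were called, except 2 without a variance trend, neither of them an interneuron gene listed here. The count of the 9 genes with a higher mean in Recurring libraries was 3 of 5 as reported. It was 7 of 9 with no filter, beside 49.5% of all genes, and ranged from 1 to 5 when single libraries were left out. The filter requiring 10 or more in all 8 libraries left none of the 9. The gap between Recurring replicate 2 and the next library was 2.35 and ranged from 1.88, with a pseudocount of 8, to 2.69, without Recurring replicate 3. Gad2 stayed higher in Recurring libraries under 18 of 18 alternatives (1.76 to 4.84) and Nr2f2 under 14 of 14 in which it was tested (0.74 to 5.64). Nr2f2 failed the filter whenever a library with its reads was left out. Its 14 therefore cannot show whether the difference depends on any such library. Gad1 changed sign under 4 of 18, Adarb2 under 3 and Rab3b under 2. Depth limits genes near 3 reads per library, Alk above all. The planned edgeR test was not run, because it was planned only if a check by column passed, and each gene's column has 8 values, too few for that check. The whole reads themselves were checked over all values of the table.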

Other observations

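Some genes of the medial list stood in 1 or 2 libraries and were chosen after their values were seen. Eya4, a developmental transcription cofactor gene, had 989 reads in Recurring replicate 4 and at most 25 in any other library. Sox6, a transcription factor gene of medial interneurons, had 229 and 284 reads in Recurring replicates 3 and 4 and at most 7 elsewhere. The same libraries had 2310 and 235 reads of Vip, which had 1 read in all the others. Nos1, the neuronal nitric oxide synthase gene, had 223 reads in Day 0 replicate 2 and at most 14 elsewhere.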
